A study of Mus musculus with 21 samples.

Results

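GABAergic interneurons are the inhibitory neurons of the hippocampus, and 9 genes that define them or mark their classes were followed here across 14 mouse hippocampal RNA libraries. The 9 genes were chosen by symbol, from 24498 genes in the deposited count table: Gad1, Gad2 and Slc32a1 for making and packing GABA, Pvalb, Calb2, Reln and Erbb4 as markers of interneuron classes, and Lhx6 and Dlx1 as transcription factors. All 9 were in the table and all 9 passed the filter on low counts. The members were described in ethanol libraries with over 1000000 reads in genes.

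The animals were male mice aged 8 weeks, with no strain named, that received ethanol by intraperitoneal injection at 2 g/kg as a 20% solution. In the knockdown arm an AAV2/9 vector carried a U6-driven short hairpin RNA against Acss2, the enzyme that makes acetyl-CoA from acetate, with EGFP under a CMV promoter. The sample protocol places that vector in the dorsal hippocampus, the series text may mean a systemic injection, and the labels describe no vector for the control arm. The deep ethanol libraries were 4 from dorsal knockdown, 3 from dorsal control, 3 from ventral knockdown and 4 from ventral control hippocampus, with 1 more from total knockdown hippocampus that entered no test. Libraries are numbered as in their titles. Whether each library of a group is a different animal is not said in the labels, and p-values here cover the spread among libraries alone, which may be technical. Every group in the tests received ethanol, so an ethanol effect could not be tested.

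In the brain, GABA is made from glutamate by 2 glutamate decarboxylases, GAD67 from Gad1 and GAD65 from Gad2, and is loaded into vesicles by the transporter VGAT from Slc32a1. Interneurons are born in the ganglionic eminences of the embryonic brain, where Dlx genes are switched on first and Lhx6 follows in cells of the medial eminence, many of which become parvalbumin or somatostatin cells. Adult hippocampal interneurons keep part of that programme and are told apart by calcium-binding proteins such as parvalbumin and calretinin, by the secreted protein reelin and by the neuregulin receptor ErbB4.

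The deep ethanol libraries held 2819837 to 13240179 reads in genes. Genes held 57.4 to 81.0% of their uniquely aligned reads. The highest share was in ventral knockdown 3, against 60.6 and 57.4% in ventral knockdown 2 and 4. The ribosomal RNA gene Rn45s made up 0.625 to 20.7% of reads in genes. The part of these differences in the members' values was not tested. Levels below are counts per 1000000 reads (CPM) of the library size after scaling by trimmed means (TMM). Acss2 itself had 44.2, 40.8, 18.0 and 19.2 CPM in dorsal knockdown libraries 1 to 4, against 52.9, 58.6 and 52.7 CPM in dorsal control libraries 1 to 3, a log2 fold change of -0.84 (SE 0.32, adjusted p = 0.964 in edgeR). In ventral libraries Acss2 overlapped, with 28.8, 63.5 and 36.6 CPM in ventral knockdown 2 to 4 against 47.4 to 54.1 CPM in ventral control. Ventral control 2, 3 and 4 stood apart from the rest in some genes of forebrain regions outside the hippocampus, Zic1 here and Sp8 below. Zic1, a transcription factor gene of septum and olfactory bulb among other regions, had 91.9, 100.3 and 135 CPM there, against 5.41 CPM in ventral control 1 and 3.62 to 21.8 CPM in the other 10 libraries. Ventral control 4 also held 15502 CPM summed over 8 choroid plexus genes, Ttr foremost, against 34.5 to 627 CPM in ventral control 1 to 3.

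The 9 members are protein-coding, and positions below are from the GENCODE M21 annotation of GRCm38, the assembly also called mm10. Of the members, 5 lie on chromosome 2: Gad1 at chr2:70553072-70602014, Gad2 at chr2:22622205-22693874, Slc32a1 at chr2:158610767-158615748, Lhx6 at chr2:36081953-36105408 on the minus strand, and Dlx1 at chr2:71528113-71533981. The other 4, all on the minus strand, are Pvalb at chr15:78191114-78206400, Reln at chr5:21884454-22344702, Erbb4 at chr1:68032186-69108059 and Calb2 at chr8:110137502-110168210. Dlx1 overlaps the antisense gene Dlx1as, and Gad1 overlaps Gad1os. The kit was directional, but how strand was treated in counting is not stated, so reads of Dlx1 and Gad1 may include reads of those partners.

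The sequence before the start sites was read for the members. It is shown for Gad1, Gad2, Reln and Erbb4, and for Dlx2, the gene most like Dlx1. These are not all the pairs whose levels went together across libraries, as described below. RefSeq's table for GRCm38.p6 held starts for 8 of the 9 members, all but Calb2. The windows of 250 bases before a start held 17 CG pairs for Gad1, 13 for Gad2, 37 for Reln, 12 for Erbb4, 12 for Slc32a1 and 22 for Dlx1, and 24 for Dlx2, the neighbour of Dlx1. Lhx6, with 3 starts, had 14, 17 and 7, and Pvalb, with 2 starts, had 4 and 23, and these are not printed. Over 32851 such windows of all genes the median was 6 and the middle 50% ran from 2 to 16. The sequences shown run 5′ to 3′ toward the start with CG in capitals, and stop before the first annotated exon that falls within the window. Gad1 and Gad2 are therefore shorter, and Dlx1, whose window begins in such an exon, is not shown. The Gad1 stretch lies inside the span given above for that gene, so it does not precede every Gad1 transcript.
Gad1, chr2:70561879-70562041, plus strand: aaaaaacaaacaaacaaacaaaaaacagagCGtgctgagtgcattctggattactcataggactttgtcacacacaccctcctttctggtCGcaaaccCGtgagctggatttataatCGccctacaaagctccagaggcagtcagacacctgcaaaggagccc
Gad2, chr2:22622077-22622204, plus strand: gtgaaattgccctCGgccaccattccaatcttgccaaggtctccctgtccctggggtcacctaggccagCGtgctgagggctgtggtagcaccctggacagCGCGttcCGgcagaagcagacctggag
Reln, chr5:22344706-22344955, minus strand: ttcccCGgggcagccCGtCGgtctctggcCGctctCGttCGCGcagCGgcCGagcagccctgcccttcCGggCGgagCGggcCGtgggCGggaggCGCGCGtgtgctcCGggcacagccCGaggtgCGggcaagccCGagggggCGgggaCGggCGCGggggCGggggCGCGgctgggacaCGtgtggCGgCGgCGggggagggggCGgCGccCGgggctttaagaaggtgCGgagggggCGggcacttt
Erbb4, chr1:69108060-69108309, minus strand: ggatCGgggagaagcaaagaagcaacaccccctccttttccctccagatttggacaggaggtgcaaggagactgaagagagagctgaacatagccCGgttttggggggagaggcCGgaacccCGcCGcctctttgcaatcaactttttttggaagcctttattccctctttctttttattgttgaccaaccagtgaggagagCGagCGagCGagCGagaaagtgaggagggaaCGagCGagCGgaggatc
Dlx2, chr2:71546755-71547004, minus strand: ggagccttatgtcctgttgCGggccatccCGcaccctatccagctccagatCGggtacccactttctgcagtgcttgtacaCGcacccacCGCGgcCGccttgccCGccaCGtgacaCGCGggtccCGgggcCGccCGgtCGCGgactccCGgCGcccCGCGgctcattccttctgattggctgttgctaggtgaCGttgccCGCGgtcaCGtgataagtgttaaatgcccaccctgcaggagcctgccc
The Gad1 stretch is rich in A at its far end and holds 4 CG pairs in 163 bases, the Gad2 stretch 5 in 128 bases. The letters TAATTA, a core to which many homeodomain factors bind, read on both strands alike, occurred in 0 of 11 member windows and in 4.84% of all windows. This says only that these letters are not in these windows.

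No member was called in any comparison by the main test, edgeR's quasi-likelihood F-test at an adjusted p under 0.05, and neither was any of the 14578 genes tested, a background of 0.0% in every comparison. Fold changes below are knockdown over control and dorsal over ventral. In bulk tissue, fewer interneurons and less RNA per interneuron cannot be told apart. The median log2 fold change of the 9 members was -0.13 for knockdown in dorsal libraries, 0.03 for knockdown in ventral libraries, 0.06 for region in the control arm and -0.25 for region in the knockdown arm. Over all tested genes these medians were 0.03, -0.01, -0.06 and -0.01. Dlx1 stood out among the members in ventral control hippocampus, and Calb2 had the widest spread between libraries.

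**Figure D1:**
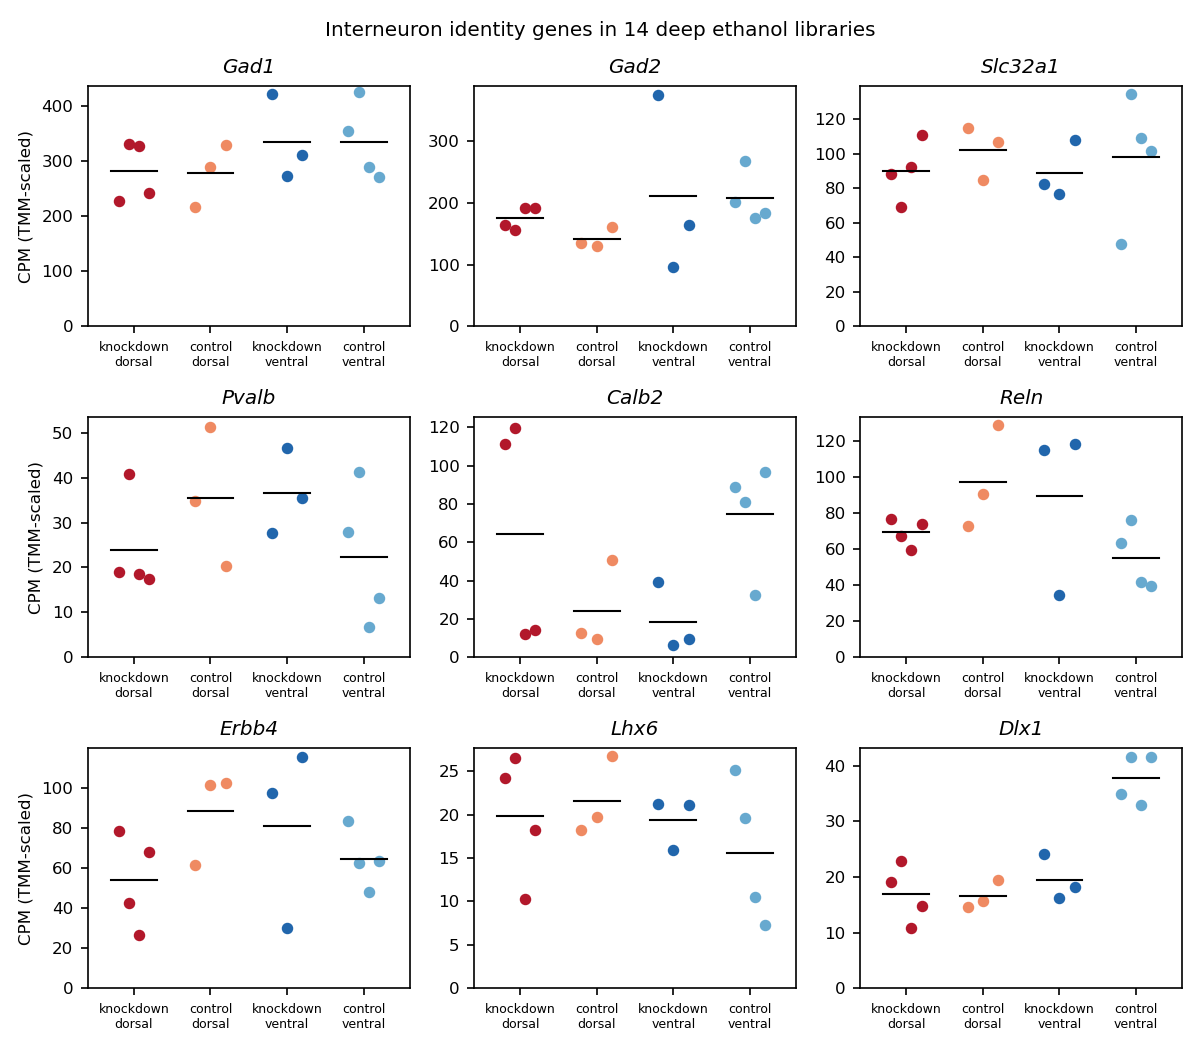
Level of each of the 9 genes (vertical axis, CPM after TMM scaling, from 0) in the 14 deep ethanol libraries by group, with a point per library and a line at the group mean. Dlx1 in ventral control (33.0 to 41.6 CPM) lies above every other library, and Calb2 splits the dorsal knockdown libraries into 2 high and 2 low.

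The genes for making GABA were among the most abundant members. Per kilobase of all annotated exons together, over the 14 libraries, Gad1 averaged 40.3 CPM per kb, Slc32a1 33.9, Gad2 31.5, Calb2 28.1 and Pvalb 27.5. The other 4 members were lower on that scale, with Erbb4 at 5.67, Dlx1 at 4.32, Lhx6 at 3.93 and Reln at 3.19 CPM per kb. In each library the members rested on between 28 reads (Calb2 in dorsal control 1, the shallowest deep library) and 4709 reads (Gad1 in dorsal control 3).

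Gad1, which encodes the decarboxylase that makes most of the brain's GABA, was the steadiest member. It had 228, 331, 328 and 243 CPM in dorsal knockdown, against 217, 290.1 and 329.8 CPM in dorsal control. In ventral libraries it had 422, 273 and 311 CPM in knockdown, against 355, 426, 289 and 272 CPM in control. The groups overlapped in every comparison, and the highest library was 1.97 times the lowest. For knockdown, the log2 fold change was 0.02 (SE 0.24, 95% interval -0.50 to 0.54) in dorsal and -0.0007 (SE 0.24, interval -0.52 to 0.52) in ventral libraries. Dorsal over ventral it was -0.27 (SE 0.24) in the control arm and -0.25 (SE 0.24) in the knockdown arm.

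Gad2, which encodes the membrane-anchored decarboxylase of nerve terminals, ranged more widely, 3.91 times between lowest and highest library. Its levels were 164, 156, 192 and 192 CPM in dorsal knockdown, against 135, 129 and 160.4 CPM in dorsal control. In ventral libraries Gad2 had 376, 96.1 and 164 CPM in knockdown, against 202, 268, 176 and 184 CPM in control. Ventral knockdown 2 and 3 held the highest and the lowest Gad2 of all 14 libraries, on either side of every ventral control library. Knockdown over control, the log2 fold change was 0.31 (SE 0.34, interval -0.42 to 1.04) in dorsal and 0.03 (SE 0.34, interval -0.70 to 0.76) in ventral libraries. Without ventral knockdown 2 the ventral value was -0.67 and without ventral knockdown 3 it was 0.39. The 3 dorsal control libraries lay below all 4 ventral control libraries, with a log2 fold change dorsal over ventral of -0.55 (SE 0.34, adjusted p = 0.731 in edgeR). In the knockdown arm it was -0.27 (SE 0.34) and the regions overlapped.

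Slc32a1, the gene of the vesicular GABA transporter, had 88.3, 68.8, 92.0 and 110.5 CPM in dorsal knockdown, against 115, 84.9 and 107 CPM in dorsal control. It had 82.5, 76.8 and 108 CPM in ventral knockdown, against 47.5, 135, 109 and 101 CPM in ventral control. The lowest and the highest library of all 14 were both ventral controls, so the groups overlapped throughout. The log2 fold change for knockdown was -0.18 (SE 0.29, interval -0.80 to 0.43) in dorsal and -0.14 (SE 0.29, interval -0.76 to 0.48) in ventral libraries. With ventral control 1, the lowest of the 14 libraries, as the single ventral control, the ventral value turned to 0.93, given as an effect size only. Region differences were 0.06 (SE 0.29) in the control arm and 0.01 (SE 0.29) in the knockdown arm, dorsal over ventral.

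Added together, Gad1, Gad2 and Slc32a1 came to 548 ± 54.0 CPM in dorsal knockdown (SD, n = 4) and 523 ± 67.1 CPM in dorsal control (n = 3), and to 636 ± 222 CPM in ventral knockdown (n = 3) and 641 ± 127 CPM in ventral control (n = 4). Set against Slc17a7, the vesicular glutamate transporter gene of pyramidal and other excitatory neurons, the sum was 0.203 to 0.531 of the Slc17a7 level in dorsal knockdown and 0.288 to 0.474 of it in dorsal control. It was 0.234 to 0.808 in ventral knockdown and 0.411 to 0.842 in ventral control, so arms overlapped in both regions. The ratio of Gad1 to Gad2 was 1.63 ± 0.39 in dorsal knockdown libraries against 1.97 ± 0.33 in dorsal controls, and 1.95 ± 0.86 in ventral knockdown and 1.62 ± 0.12 in ventral control. The ventral control libraries were close to each other in that ratio, 1.48 to 1.76, while ventral knockdown ran from 1.12 to 2.84.

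Pvalb encodes parvalbumin, the calcium buffer of fast-spiking basket and chandelier cells. It had 18.9, 40.8, 18.5 and 17.5 CPM in dorsal knockdown, against 34.7, 51.3 and 20.4 CPM in dorsal control. In ventral libraries Pvalb had 27.7, 46.6 and 35.6 CPM in knockdown, against 28.0, 41.3, 6.73 and 13.3 CPM in control. Of the dorsal knockdown libraries 3 were below every dorsal control and the fourth, library 2, was above all but 1 of them, and in the ventral arm control 3 and 4 were the 2 lowest libraries of the 14. For knockdown, the log2 fold change was -0.56 (SE 0.50, interval -1.64 to 0.52) in dorsal and 0.74 (SE 0.50, interval -0.34 to 1.82) in ventral libraries. The dorsal value was -0.94 without dorsal knockdown 2 and -0.18 without dorsal control 2. Dorsal over ventral, the values were 0.69 (SE 0.51) in the control arm and -0.61 (SE 0.50) in the knockdown arm.

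Reln encodes reelin, which neurogliaform and some somatostatin cells secrete in adults, as do Cajal-Retzius cells near the hippocampal fissure. It had 76.7, 67.3, 59.5 and 74.0 CPM in dorsal knockdown, against 72.9, 90.7 and 129 CPM in dorsal control. In ventral libraries Reln had 115, 34.9 and 118 CPM in knockdown, against 63.7, 76.6, 42.0 and 39.4 CPM in control. In each region the arms overlapped through 1 library: dorsal control 1 lay among the knockdown libraries, and ventral knockdown 3 was the lowest of all 14. Knockdown over control, the log2 fold change was -0.50 (SE 0.36, interval -1.26 to 0.27) in dorsal and 0.70 (SE 0.36, interval -0.07 to 1.47) in ventral libraries. Dorsal over ventral, Reln was at 0.83 (SE 0.36, unadjusted p = 0.0373, adjusted p = 0.731 in edgeR) in the control arm and -0.37 (SE 0.36) in the knockdown arm.

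Erbb4 encodes the receptor for neuregulins that parvalbumin cells and other interneurons carry. It had 78.4, 42.3, 26.5 and 67.7 CPM in dorsal knockdown, against 61.4, 102 and 102 CPM in dorsal control. In ventral libraries Erbb4 had 97.2, 29.9 and 115 CPM in knockdown, against 83.4, 62.5, 48.1 and 63.4 CPM in control. Dorsal control 2 and 3 were above all dorsal knockdown libraries and dorsal control 1 was among them, while ventral knockdown 3 was again far below the other ventral knockdown libraries. The log2 fold change for knockdown was -0.73 (SE 0.42, interval -1.62 to 0.17) in dorsal and 0.33 (SE 0.42, interval -0.57 to 1.23) in ventral libraries. Without ventral knockdown 3 the ventral value was 0.73, and without ventral knockdown 4 it was -0.01. Dorsal over ventral, the values were 0.47 (SE 0.42) in the control arm and -0.59 (SE 0.42) in the knockdown arm.

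Lhx6 encodes the LIM homeodomain factor that interneurons from the medial ganglionic eminence keep through life. It had 24.1, 26.5, 10.2 and 18.2 CPM in dorsal knockdown, against 18.2, 19.7 and 26.7 CPM in dorsal control. In ventral libraries Lhx6 had 21.2, 15.9 and 21.0 CPM in knockdown, against 25.1, 19.7, 10.5 and 7.24 CPM in control. All comparisons overlapped, and ventral control 3 and 4 were low in Lhx6 as they were in Pvalb. For knockdown, the log2 fold change was -0.13 (SE 0.39, interval -0.97 to 0.70) in dorsal and 0.33 (SE 0.39, interval -0.51 to 1.17) in ventral libraries. Region values were 0.49 (SE 0.39) in the control arm and 0.03 (SE 0.39) in the knockdown arm, dorsal over ventral.

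Sst, the somatostatin gene, which cells of the medial eminence also express and which is no member, was chosen after its values were seen and had 186 to 528 CPM in ventral knockdown, against 65.1 to 425 CPM in ventral control. Its log2 fold change for knockdown in ventral libraries was 0.62 (SE 0.55, adjusted p = 1 in edgeR).

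Calb2, the calretinin gene, had the widest spread, 18.7 times from lowest to highest library. In the hippocampus of mice calretinin marks a class of interneurons that contact other interneurons, and also mossy cells and Cajal-Retzius cells. Its levels were 111, 119.8, 11.98 and 14.3 CPM in dorsal knockdown, against 12.5, 9.70 and 50.8 CPM in dorsal control. In ventral libraries Calb2 had 39.6, 6.42 and 9.64 CPM in knockdown, against 88.8, 81.2, 32.5 and 96.5 CPM in control. Dorsal knockdown 1 and 2 were far above dorsal knockdown 3 and 4, and the highest ventral knockdown library was just above the lowest ventral control. Within groups the SD of log2 CPM was 1.36, larger than in 97.6% of tested genes, where the median gene had 0.43. Knockdown over control, the log2 fold change was 1.36 (SE 0.87, interval -0.50 to 3.23) in dorsal and -2.02 (SE 0.90, interval -3.93 to -0.10, unadjusted p = 0.0407, adjusted p = 1 in edgeR) in ventral libraries. Dorsal over ventral it was -1.58 (SE 0.88) in the control arm and 1.80 (SE 0.89) in the knockdown arm. Leaving out 1 library moved the control arm value to between -2.78 (without dorsal control 3) and -1.19 (without dorsal control 2), and the knockdown arm value to between 1.31 (without dorsal knockdown 2) and 2.999 (without ventral knockdown 2).

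Other cell types with calretinin were followed with it. The mossy cell list, 6 genes summed without Calb2, came to 94.5 to 186 CPM in dorsal knockdown and 80.1 to 102 CPM in dorsal control, and to 72.1 to 207 CPM in ventral knockdown and 70.5 to 220.1 CPM in ventral control. The genes of the Cajal-Retzius list, without Calb2 and Reln, came to 51.4 to 63.3 CPM in dorsal knockdown and 50.7 to 66.7 CPM in dorsal control, and to 27.3 to 108 CPM in ventral knockdown and 46.2 to 166 CPM in ventral control. Ebf3, a transcription factor gene of that list, had 0.518 to 2.34 CPM in ventral knockdown and 1.50 to 18.5 CPM in ventral control, highest in control 4, and no gene of either list was at 0 in all libraries of a ventral group. Of the 8 tested genes of the Cajal-Retzius list, Calb2 and Reln included, 7 were lower by value for knockdown in ventral libraries (median -0.59). Of these genes 3 had an unadjusted p under 0.05 in edgeR, against 4.07% of all tested genes. In the control arm 7 of the 8 were lower in dorsal than in ventral libraries (median -1.09). Of the 6 mossy cell genes, Calb2 included, 5 were lower by value for knockdown in ventral libraries (median -0.37), 5 were higher by value for knockdown in dorsal libraries (median 0.76), and 6 of 6 were positive in the interaction (median 0.93). None of these genes was called in edgeR. The thalamus and habenula list also holds Calb2. Without Calb2 it came to 97.7 to 115 CPM in ventral knockdown and 67.1 to 231 CPM in ventral control. In dorsal libraries it came to 56.7 to 82.9 CPM in knockdown and 73.4 to 131 CPM in control. Of its 9 tested genes, Calb2 included, 6 were higher and 3 lower for knockdown in ventral libraries, and 0 were called in edgeR. The part of these cells and regions in the Calb2 levels was not tested.

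Dlx1 encodes a homeodomain factor of the interneuron lineage. Its within-group SD of log2 CPM was 0.32, next after Gad1 at 0.30 as the smallest among members. It had 19.2, 22.9, 10.8 and 14.7 CPM in dorsal knockdown, against 14.7, 15.6 and 19.5 CPM in dorsal control. In ventral libraries Dlx1 had 24.0, 16.3 and 18.2 CPM in knockdown, against 34.8, 41.6, 33.0 and 41.5 CPM in control. All 4 ventral control libraries were above all 10 others, and the other 3 groups overlapped. How many of all tested genes show that pattern was not counted. Taken as pairs of groups, 2.68% of tested genes did not overlap for knockdown in ventral libraries and 9.27% for region in the control arm. The log2 fold change for knockdown was 0.02 (SE 0.25, interval -0.53 to 0.56) in dorsal and -0.95 (SE 0.25, interval -1.49 to -0.41, unadjusted p = 0.00208, adjusted p = 0.646 in edgeR) in ventral libraries. Dorsal over ventral it was -1.17 (SE 0.26, unadjusted p = 0.000432, adjusted p = 0.731 in edgeR) in the control arm and -0.21 (SE 0.25, interval -0.74 to 0.33) in the knockdown arm. DESeq2 called that region difference in the control arm at -1.18 (SE 0.27, adjusted p = 0.0259), and adjusted p ranged from 0.0259 to 0.974 over the alternatives. The ventral knockdown difference was not called by DESeq2 (adjusted p = 0.0926), with a range of 0.0926 to 1.00 over the alternatives.

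**Figure D2:**
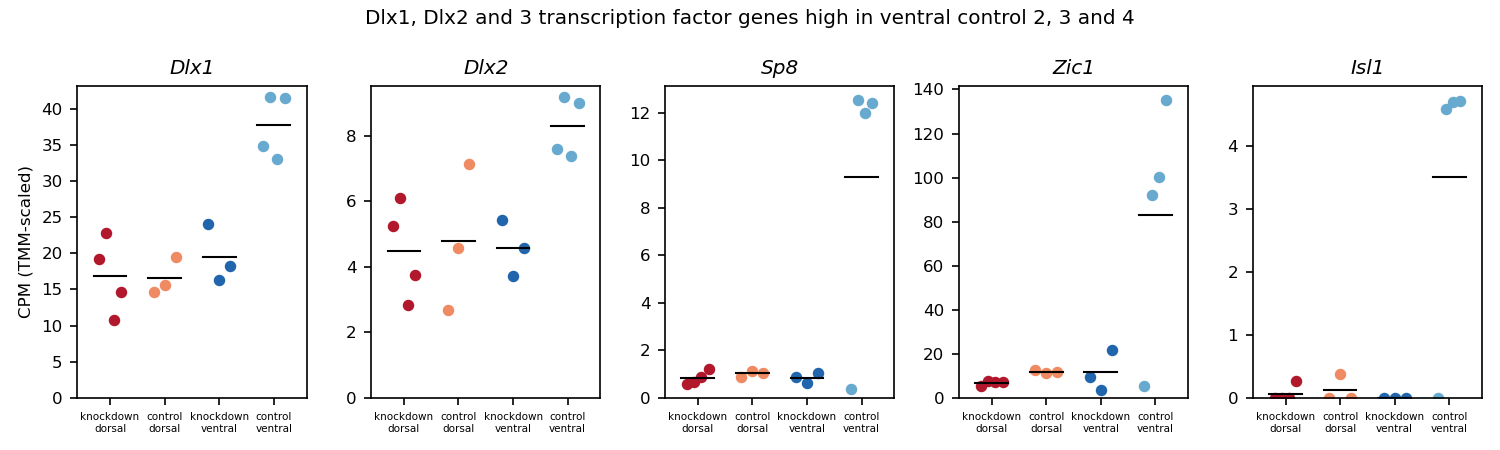
Level of Dlx1, Dlx2, Sp8, Zic1 and Isl1 (vertical axes, CPM after TMM scaling, from 0) in the 14 deep ethanol libraries by group, with a point per library and a line at the group mean. Dlx1 and Dlx2 are high in all 4 ventral control libraries, whereas Sp8, Zic1 and Isl1 are high in 3 of them and low in ventral control 1.

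The high Dlx1 of ventral control went with other genes in 3 of its 4 libraries. Sp8, a zinc finger factor gene of interneurons from the caudal and lateral eminences and of the olfactory bulb, had 12.5, 11.96 and 12.4 CPM in ventral control 2, 3 and 4, against 0.361 CPM in ventral control 1 and 0.568 to 1.2025 CPM in the 10 libraries of the other groups. Isl1, a gene of striatal and cholinergic neurons, had 4.59, 4.70 and 4.72 CPM in the same 3 libraries, and 0 reads in ventral control 1 and in all 3 ventral knockdown libraries. The 12 genes of the striatum and septum list summed to 365, 429 and 550.4 CPM in ventral control 2, 3 and 4. Their sum was 279 CPM in ventral control 1 and 223 to 318 CPM in ventral knockdown. In dorsal libraries it was 222 to 361 CPM in knockdown and 276 to 296 CPM in control. Of these genes, 5 were higher and 7 lower for region in the control arm. For knockdown in ventral libraries 3 were higher and 9 lower, and 0 were called in edgeR. Ventral control 1, low in Sp8, Zic1 and Isl1, held 34.8 CPM of Dlx1, above the highest library outside its group at 24.0 CPM.

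A fit with ventral control 1 as the single ventral control was chosen after the values were seen. In it the Dlx1 difference was -0.82 for knockdown and -1.05 for region, given as effect sizes only. That single library was assumed to vary like the other groups. It was already known to hold more Dlx1, 34.8 CPM, than every library outside its group, so the direction of both values was set beforehand. Leaving out each library in turn gave -1.12 to -0.83 for knockdown and -1.32 to -1.10 for region.

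Dlx2, the neighbouring homeodomain gene, was the gene most like Dlx1 of 11789 with a mean of at least 5 CPM (Pearson r = 0.92, Spearman rho = 0.96 over 14 libraries, which share groups and libraries and get no p). Dlx2 had 5.42, 3.73 and 4.56 CPM in ventral knockdown, against 7.58, 9.19, 7.37 and 8.99 CPM in ventral control, and the groups did not overlap. Its log2 fold change for knockdown was -0.86 (SE 0.35, adjusted p = 1 in edgeR) in ventral and -0.16 (SE 0.34) in dorsal libraries. Like genes of single members are given after their values were seen. The next genes in likeness to Dlx1 were Ano2 (r = 0.86), Nedd4 (r = 0.85), Fam120b (r = 0.84) and Caprin2 (r = 0.84).

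Dlx1as, transcribed from the strand opposite Dlx1, had 12.6, 18.2 and 13.9 CPM in ventral knockdown, against 17.9, 26.8, 17.2 and 19.5 CPM in ventral control. In dorsal libraries it had 16.8, 12.7, 3.92 and 8.68 CPM in knockdown, against 21.3, 20.2 and 22.4 CPM in control. Dlx1as thus overlapped between ventral arms and was lower in every dorsal knockdown than in every dorsal control library, which Dlx1 was not. Its log2 fold change for knockdown was -0.44 (SE 0.36) in ventral and -1.02 (SE 0.36, adjusted p = 0.955 in edgeR) in dorsal libraries.

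Counts of members past looser limits were read against the same share of all tested genes. For knockdown in dorsal libraries 4 of 9 members had a positive and 5 a negative fold change, and 0 had an unadjusted p under 0.05, against 4.58% of tested genes (667 genes), while 0 had groups that did not overlap, against 7.02%. DESeq2 called 6 genes there, none a member. For knockdown in ventral libraries 5 were positive and 4 negative, 2 (Calb2 and Dlx1) had an unadjusted p under 0.05, against 4.07% of tested genes (593 genes), and 1 (Dlx1) did not overlap, against 2.68%. DESeq2 called 34 genes there, none a member.

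For region in the control arm 5 members were positive and 4 negative, 2 (Dlx1 and Reln) had an unadjusted p under 0.05, against 5.58% of tested genes (813 genes), and 2 (Dlx1 and Gad2, both lower in dorsal) did not overlap, against 9.27%. DESeq2 called 13 genes there, of which Dlx1 was the only member. For region in the knockdown arm 3 were positive and 6 negative, and 0 passed an unadjusted p of 0.05, against 2.17% of tested genes (317 genes), while 0 did not overlap, against 1.74%. DESeq2 called 0 genes there. The comparisons in ventral libraries and in the control arm share the ventral control libraries, so their values are not independent.

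The number of genes with an unadjusted p under 0.05 itself depended on single libraries. For knockdown in dorsal libraries it ran from 321 (without dorsal knockdown 3) to 916 (without dorsal knockdown 1), and in ventral libraries from 339 (without ventral control 4) to 1029 (without ventral knockdown 3). For region it ran from 425 (without dorsal control 1) to 1395 (without ventral control 3) in the control arm, and from 192 (without dorsal knockdown 3) to 845 (without ventral knockdown 3) in the knockdown arm.

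**Figure D3:**
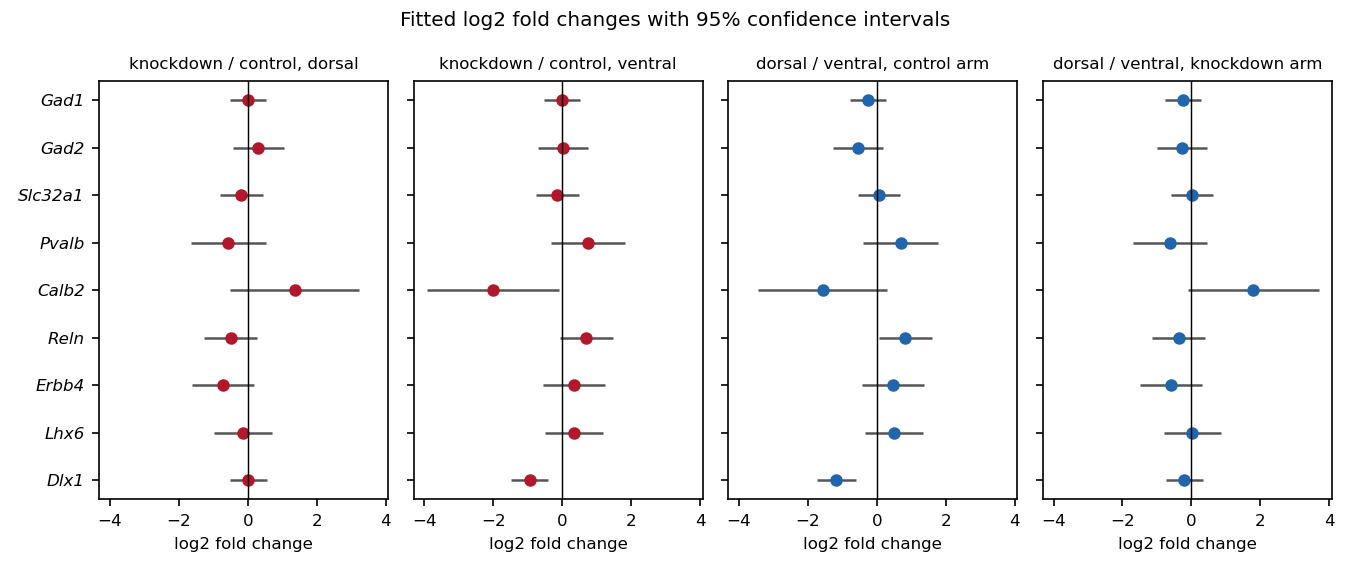
Fitted log2 fold change of each gene (horizontal axis) in the 4 comparisons, with the first-named group on top, points for the estimate and lines for its 95% confidence interval. The Dlx1 intervals leave out 0 for knockdown over control in ventral libraries (-1.49 to -0.41) and dorsal over ventral in the control arm, and those of Gad1 are the narrowest of the set, about 0.

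Whether the knockdown difference itself differed between regions was tested as an interaction, dorsal minus ventral knockdown effect. It had an unadjusted p under 0.05 for 3 members, against 4.61% of tested genes (672 genes), and called 0 genes in edgeR and 7 in DESeq2. The interaction was 3.38 (SE 1.25, unadjusted p = 0.0168) for Calb2, 0.97 (SE 0.36, unadjusted p = 0.0170) for Dlx1 and -1.19 (SE 0.51, unadjusted p = 0.0336) for Reln on the log2 scale, each with an adjusted p of 0.998 in edgeR. Without dorsal knockdown 2 the Calb2 interaction was 2.88, and without dorsal control 3 it was 4.58. Averaged over regions, 1 member, Dlx1, had an unadjusted p under 0.05 for knockdown (-0.47, SE 0.18, adjusted p = 1 in edgeR), against 3.96% of tested genes (577 genes). Averaged over arms, 1 member, again Dlx1, had one for region (-0.69, SE 0.18, adjusted p = 0.937 in edgeR), against 2.66% of tested genes (388 genes). Leaving out 1 library gave 461 (without ventral knockdown 4) to 1099 genes (without ventral knockdown 3) for the interaction, 382 (without dorsal knockdown 3) to 898 (without ventral control 1) for averaged knockdown, and 233 (without ventral knockdown 2) to 950 (without dorsal knockdown 2) for averaged region.

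The order of group means differed from gene to gene. Dlx1 averaged 16.9 ± 5.3 CPM in dorsal knockdown and 16.6 ± 2.5 CPM in dorsal control, and 19.5 ± 4.0 CPM in ventral knockdown and 37.7 ± 4.5 CPM in ventral control (SD, n = 4, 3, 3 and 4). Ventral control was thus first in the order of Dlx1, and neighbours among the other 3 groups differed by less than the larger of their SDs. Reln averaged 69.4 ± 7.7 CPM in dorsal knockdown and 97.5 ± 28.6 CPM in dorsal control, and 89.5 ± 47.3 CPM in ventral knockdown and 55.4 ± 17.8 CPM in ventral control, so ventral control was last. Erbb4 averaged 53.7 ± 23.7 CPM in dorsal knockdown and 88.4 ± 23.4 CPM in dorsal control, and 80.8 ± 45.0 CPM in ventral knockdown and 64.3 ± 14.5 CPM in ventral control. For Reln and Erbb4 alike, dorsal control came first and ventral knockdown second, and neighbours in the order differed by less than the larger of their SDs. Calb2 averaged 64.3 ± 59.2 CPM in dorsal knockdown and 24.3 ± 23.0 CPM in dorsal control, and 18.5 ± 18.3 CPM in ventral knockdown and 74.7 ± 28.9 CPM in ventral control, and its neighbours too differed by less than the larger SD.

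Markers of neighbouring cortex were followed beside Reln and Erbb4, which they matched in some libraries and not in others. The 10 genes of the neocortex and entorhinal list summed to 295, 284, 233 and 624.6 CPM in dorsal knockdown, against 459, 716 and 443 CPM in dorsal control. In ventral libraries they summed to 692, 264 and 674 CPM in knockdown, against 338, 405, 317 and 229 CPM in control. Ventral knockdown 3, low in Reln and Erbb4, was also low in this sum. Dorsal control 3, with the highest Reln of the 14 libraries, had the lowest sum of the dorsal controls. Dorsal knockdown 1 had the highest Reln and Erbb4 of its group and a sum of 295 CPM, against 624.6 CPM in dorsal knockdown 4. In the interaction 9 of the 10 genes were negative, with a median log2 value of -1.02 against 0.05 over all tested genes, and 0 were called in edgeR. Lamp5 and Fezf2, named elsewhere here, belong to this list, none of the 10 was at 0 in any of these libraries, and the part of such tissue in the members' values was not tested.

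**Figure D4:**
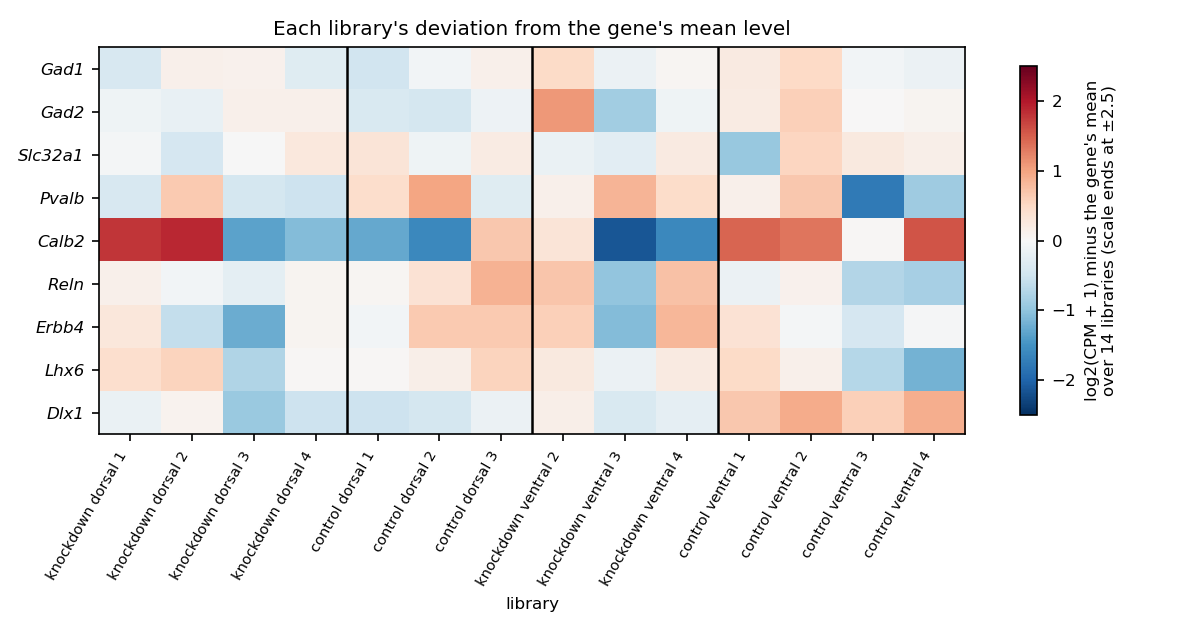
Deviation of each library (columns, grouped with knockdown left of control in each region) from the gene's mean over 14 libraries (rows), as log2(CPM + 1), red above and blue below the mean. Calb2 varies most within groups, Dlx1 is above its mean in all 4 ventral control libraries, and ventral knockdown 3 is below the mean in Gad2, Calb2, Reln and Erbb4.

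Members did not vary as a block. Over the 36 pairs of members the Pearson correlation of log2 CPM across the 14 libraries ran from -0.30 (Slc32a1 and Lhx6) to 0.74 (Reln and Erbb4), with a median of 0.17. Reln and Erbb4 (rho = 0.81), Calb2 and Dlx1 (r = 0.71, rho = 0.65), Reln and Lhx6 (r = 0.68, rho = 0.66) and Gad1 and Gad2 (r = 0.66, rho = 0.49) had the highest values, while Gad1 and Slc32a1 were at -0.17. These libraries share groups and dissections, and the values carry no p. Among the genes most like the mean of Gad1, Gad2 and Slc32a1 were St8sia2 (r = 0.77), Cacna2d2 (r = 0.76), Cav1 (r = 0.76) and 9030617O03Rik (r = 0.75) out of 11789. The gene most like Pvalb was Kcnab3 (r = 0.93), those most like Reln were Adgra1 and Btbd11 (r = 0.93 each), and Fezf2 was most like Lhx6 (r = 0.90).

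The total hippocampus library from the knockdown arm, a single sample, lay within the range of the 14 libraries for all members. It had 341 CPM of Gad1, 141 of Gad2 and 104 of Slc32a1. It also had 40.1 CPM of Pvalb, 107 of Reln, 112 of Erbb4 and 23.5 of Lhx6, and 10.2 CPM of Calb2 and 17.7 of Dlx1. Acss2 in this library was at 58.0 CPM, within the 52.7 to 58.6 CPM of dorsal control, so it showed no loss of Acss2 RNA.

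Of 19 other transcription factor genes of the interneuron lineage, 18 were tested and 0 were called in edgeR. For knockdown in dorsal libraries 6 were positive and 12 negative, with a median of -0.14, and in ventral libraries 8 were positive and 10 negative, with a median of -0.19. Dlx6os1, a long non-coding RNA gene of the Dlx5 and Dlx6 locus, was lower in knockdown in both regions by value, at -0.87 (SE 0.28) in dorsal and -0.85 (SE 0.28) in ventral libraries. It had 9.92 ± 3.69 CPM in dorsal knockdown and 18.1 ± 1.1 CPM in dorsal control, and 11.0 ± 0.9 CPM in ventral knockdown and 19.9 ± 4.3 CPM in ventral control. The arms did not overlap in either region, as in 7.02% of tested genes in dorsal and 2.68% in ventral libraries. Dlx6os1 was named because its unadjusted p for knockdown in dorsal libraries was the smallest of this list.

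Of 22 further interneuron marker genes 7 were positive and 15 negative for knockdown in dorsal libraries (median -0.19), and 16 were positive and 6 negative in ventral libraries (median 0.27), with 0 called in edgeR. Syt2, the synaptotagmin of parvalbumin terminals, had 9.00 ± 4.23 CPM in dorsal knockdown and 26.3 ± 15.7 CPM in dorsal control, a log2 fold change of -1.55 (SE 0.67), and the groups overlapped. Lamp5, a gene of neurogliaform cells and of cortical pyramidal cells, had 20.7 ± 8.4 CPM in dorsal knockdown and 39.3 ± 10.8 CPM in dorsal control, a log2 fold change of -0.92 (SE 0.39). Sncg, a gene of some cholecystokinin interneurons, had 3.31 ± 1.15 CPM in ventral knockdown and 6.59 ± 2.93 CPM in ventral control, a log2 fold change of -1.0015 (SE 0.37).

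Genes that clear GABA or supply its precursors were lower by value in dorsal knockdown libraries, 9 of 10 with a median of -0.42, and 0 were called in edgeR. Glul, the glutamine synthetase gene of astrocytes, was at -0.46 (SE 0.21, unadjusted p = 0.0475). In ventral libraries 7 of the 10 were positive and 3 negative, with a median of 0.01. Markers of reactive astrocytes and microglia moved with the dorsal arms by value: 9 of 9 reactive astrocyte genes summed to 1044 to 5403 CPM in dorsal knockdown and 432 to 713 CPM in dorsal control, and 10 microglial genes to 460.5 to 1185 CPM in dorsal knockdown and 305 to 428 CPM in dorsal control. For knockdown in dorsal libraries 4.58% of all tested genes had an unadjusted p under 0.05 in edgeR. Of the listed genes, 7 of 9 reactive astrocyte and 7 of 10 microglial genes did. The 10 of 10 interferon genes were positive, each with an unadjusted p under 0.05 (median 3.76). The 10 of 10 immediate early genes were positive, 5 of them with an unadjusted p under 0.05 (median 1.61), while 0 of either list were called in edgeR. Their sums overlapped between arms, at 58.5 to 868 CPM in dorsal knockdown against 54.7 to 70.7 CPM in dorsal control for interferon genes, and 158 to 3893 CPM in dorsal knockdown against 395 to 859 CPM in dorsal control for immediate early genes. The part of these responses in the values of the dorsal libraries was not tested.

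Lists of partners of the members at synapses and at the cell surface were followed too. For knockdown in dorsal libraries the 9 tested genes of ErbB4 ligands and partners had 5 positive and 4 negative values (median 0.07), the 10 reelin receptor and signalling genes 3 and 7 (median -0.16), the 10 tested perineuronal net genes 2 and 8 (median -0.22), and the 8 inhibitory synapse scaffold genes 3 and 5 (median -0.05). In ventral libraries the medians of these lists were -0.0029, 0.02, 0.13 and 0.08 in the same order. No gene of these lists was called in any comparison by edgeR. In ventral libraries 12 of 12 pan-neuronal genes were positive for knockdown (median 0.33), against 4 of 12 in dorsal libraries, and these genes summed to 8212 to 11244 CPM in ventral knockdown and 6538 to 11763 CPM in ventral control.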

How the data were processed

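RNA was sequenced from mouse hippocampus in 21 libraries, and groups were taken from the sample titles. The authors deposited 1 table of read counts, not normalized, made with STAR 2.5.2a and HTSeq 0.6.1p1 on mm10 per the submitters' processing notes. How HTSeq treated strand is not stated. The table holds 24498 genes and 5 summary lines. The summary lines entered neither library sizes nor fits, and 0 sample columns were left unused. The members and the other gene lists were chosen with earlier results of these data known.

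Left out were dorsal knockdown 5 with 5021 gene reads, ventral knockdown 1 with 8744, and the 4 untreated libraries with 4279 to 221847. The 15 ethanol libraries with over 1000000 gene reads were kept. Without the total hippocampus library these entered edgeR 4.0.16 in R 4.3.3 with filterByExpr (minimum count 10), TMM scaling and a robust quasi-likelihood fit of 4 group means over 14 libraries. All 14578 tested genes were adjusted together by Benjamini-Hochberg and called at an adjusted p under 0.05. CPM per kb divides by the length of all exons of a gene in GENCODE M21, with overlaps counted once. That length can exceed any single transcript, so the order of genes on this scale depends on the annotation. Likeness used log2 CPM with a prior count of 1. Alternatives were RLE scaling, no filter, the replicate number as a block, fewer or more groups in the fit, DESeq2 1.42.0, and each library left out. All 9 members were named in every library, other list genes by the smallest unadjusted p, up to 2 for each list and comparison, and like genes by rank of correlation. Like genes were fixed for the mean of Gad1, Gad2 and Slc32a1. Those of single members, and Zic1, Isl1, Ttr, Ebf3, Sst, Dlx2 and Dlx1as, were chosen after their values were seen, as was the fit with ventral control 1 as the single ventral control. Intervals on read shares reflect counting error alone, since reads are not independent molecules. Some genes that these rules would name are not reported here.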

Additional observations from a re-analysis of the deposited data

Results flagged for a closer look

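Pvalb in dorsal knockdown was flagged because library 2, at 40.8 CPM, lay far from the other 3 libraries of its group, at 17.5 to 18.9 CPM. This test was run on 18 gene and group combinations of 4 libraries, and chance flags about 1 in 20 such groups. Dlx1 was flagged in the untreated dorsal libraries, which entered no comparison, because its share of gene reads there was above that in every ethanol control library. It made up 289 reads per 1000000 in untreated knockdown 1 (27 reads, 95% Clopper-Pearson interval 191 to 421), 424 in untreated control 1 (49 reads, 314 to 561) and 316 in untreated control 2 (70 reads, 246 to 399). Gad1 had 42.9, 43.3 and 171 reads per 1000000 in the same 3 libraries. Genes held 0.991 to 1.43% of the uniquely aligned reads in the untreated libraries, and the part of that in these values was not tested.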

How the results depend on the processing

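Of 856 repeats of 41 fold changes of members under alternatives, 811 kept direction and side of the threshold, 44 reversed and 1 crossed the threshold. The crossing was Dlx1 for region in the control arm in DESeq2 (-1.18, adjusted p = 0.0259), which made 1 member called there. DESeq2 called 6 genes for knockdown in dorsal libraries, 34 in ventral libraries, 13 for region in the control arm, 7 for the interaction and 3 for knockdown averaged over regions. The edgeR fit of all 20 libraries called 1 gene for knockdown in ventral libraries and 1 for the interaction. The main edgeR fit called 0 throughout. Leaving out each library in turn called 0 to 8 genes for knockdown in ventral libraries, 0 to 6 for region in the control arm and 0 to 2 for averaged knockdown, each highest without ventral control 1, and 0 to 2 for the interaction, highest without ventral knockdown 3. Members called stayed at 0 in the edgeR fits. The cause was not tested.

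In all 20 libraries, Gad1 for knockdown in dorsal libraries was at -0.071, Dlx1 there at -0.0088, Gad2 in ventral libraries at -0.0351 and Slc32a1 for region in the knockdown arm at -0.0447. Gad1 in ventral libraries was at 0.0142 without a filter and 0.0087 with only the groups compared. With ventral control 1 as the single ventral control, Slc32a1 was at 0.93, Lhx6 at -0.35 and Erbb4 at -0.0246 for knockdown in ventral libraries, and Lhx6 at -0.19 for region in the control arm. Leaving out libraries gave -0.13 to 0.17 for Gad1, -0.31 to 0.0819 for Lhx6 and -0.16 to 0.18 for Dlx1 in dorsal knockdown. It gave -0.20 to 0.14 for Gad1, -0.67 to 0.39 for Gad2, -0.37 to 0.0502 for Slc32a1 and -0.0101 to 0.73 for Erbb4 in ventral knockdown. For region it gave -0.18 to 0.24 for Slc32a1 in the control arm, and -0.62 to 0.43 for Gad2, -0.10 to 0.17 for Slc32a1 and -0.15 to 0.24 for Lhx6 in the knockdown arm.

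Groups share replicate numbers, but same-numbered libraries had correlations of -0.22 to 0.37 in their deviations from group means, so the numbers were not taken to pair them. With the replicate number as a block 0 genes were called in each comparison, as without it, and Dlx1 for knockdown in dorsal libraries was at -0.0277, Gad2 in ventral libraries at -0.0786 and Lhx6 for region in the knockdown arm at -0.15, all turned in sign. Groups of 3 and 4 libraries limit what can be told apart for members with wide spread, such as Calb2, for which leaving out a library moved the log2 fold change for knockdown from 0.87 (without dorsal knockdown 2) up to 2.57 (without dorsal control 3) in dorsal libraries and between -3.21 (without ventral knockdown 2) and -1.60 (without ventral knockdown 3) in ventral libraries.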
